A study of Rattus norvegicus with 119 samples.

Results

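Oxidative phosphorylation subunits were followed in the hippocampus of 40 Fischer, 40 Long Evans and 39 Sprague Dawley rats, each on 1 Affymetrix Rat Gene 1.0 ST array. The members are the probe sets with exactly 1 gene symbol beginning with Ndufa, Ndufb, Ndufc, Ndufs, Ndufv, Sdh, Uqcr, Cox4, Cox5, Cox6, Cox7, Cox8 or Atp5. The rule found 95 probe sets of 83 symbols, out of 29214 probe sets on the array, of which 15310 carry 1 symbol each and 14506 different symbols in all. Of these, 85 measure subunits, 7 measure assembly factors or the inhibitor Atp5if1, and 3 carry pseudogene symbols (Ndufs6-ps1 and Cox6c-ps1). The prefixes thus reach beyond the subunits themselves, and the 10 other probe sets are kept and named as such. Of the 95 probe sets, 46 belong to 37 symbols for which the annotation names pseudogenes, and reads of such copies by a probe set were not tested.

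The animals were male and female Fischer, Long Evans and Sprague Dawley rats, all killed on postnatal day 55. Controls ate food without lead. Perinatal groups came from dams on food with 250 or 750 ppm lead acetate, from 10 days before breeding to weaning, and the pups then ate control food. Postnatal groups were exposed at 250 or 750 ppm from birth to day 45 and then ate control food. Each of the 30 groups of strain, sex, period and dose had 4 animals, apart from 3 male controls of Sprague Dawley. Litters are not given, so the p-values rest on the spread between animals and treat siblings, if any, as independent.

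Oxidative phosphorylation takes place in the inner mitochondrial membrane. Complex I (NADH dehydrogenase) and complex II (succinate dehydrogenase) feed electrons to ubiquinone, complex III (cytochrome bc1) passes them to cytochrome c, and complex IV (cytochrome c oxidase) passes them to oxygen. Complexes I, III and IV pump protons, and complex V (ATP synthase) uses their return to make ATP. Neurons depend heavily on this supply to restore ion gradients after firing. The members here are encoded in the nucleus; the mitochondrially encoded subunits are not among the named probe sets. Binding sites of NRF1, GABPA and YY1 are well known in promoters of nuclear genes of the respiratory chain.

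Promoter sequences are shown for 4 members that the results turn on: Atp5mk, with the largest difference of any member between animals of 1 strain, Ndufb2, with the smallest adjusted p among the strain differences, and Ndufs1 and Ndufs4, which moved in opposite directions. Each covers 250 bases before to 50 after the RefSeq start on GRCr8, read 5′ to 3′ on the gene's strand. Capitals mark an exact match to the searched letters GCGCATGCG (NRF1), CCGGAAGT (GABPA) or AAGATGGCG (YY1), on either strand. Atp5mk lies at chr1:255921998-255922297 (minus strand), Ndufb2 at chr4:69334057-69334356 (plus), Ndufs1 at chr9:72073556-72073855 (minus) and Ndufs4 at chr2:47794865-47795164 (minus).
Atp5mk: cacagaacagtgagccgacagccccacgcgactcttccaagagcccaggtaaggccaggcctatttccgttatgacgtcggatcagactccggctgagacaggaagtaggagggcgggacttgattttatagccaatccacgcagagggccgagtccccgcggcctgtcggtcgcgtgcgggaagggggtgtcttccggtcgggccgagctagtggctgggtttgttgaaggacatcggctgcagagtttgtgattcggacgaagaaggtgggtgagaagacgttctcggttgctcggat
Ndufb2: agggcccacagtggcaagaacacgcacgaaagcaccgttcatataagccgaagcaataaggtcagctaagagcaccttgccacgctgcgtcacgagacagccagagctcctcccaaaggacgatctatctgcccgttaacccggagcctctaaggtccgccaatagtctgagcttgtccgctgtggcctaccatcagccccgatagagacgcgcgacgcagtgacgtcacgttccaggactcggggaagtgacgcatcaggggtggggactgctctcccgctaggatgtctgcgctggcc
Ndufs1: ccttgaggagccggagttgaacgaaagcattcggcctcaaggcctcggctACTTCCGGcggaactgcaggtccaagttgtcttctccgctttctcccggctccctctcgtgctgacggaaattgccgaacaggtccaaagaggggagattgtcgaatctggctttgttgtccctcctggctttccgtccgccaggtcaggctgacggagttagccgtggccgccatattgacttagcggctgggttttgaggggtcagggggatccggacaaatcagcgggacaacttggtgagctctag
Ndufs4: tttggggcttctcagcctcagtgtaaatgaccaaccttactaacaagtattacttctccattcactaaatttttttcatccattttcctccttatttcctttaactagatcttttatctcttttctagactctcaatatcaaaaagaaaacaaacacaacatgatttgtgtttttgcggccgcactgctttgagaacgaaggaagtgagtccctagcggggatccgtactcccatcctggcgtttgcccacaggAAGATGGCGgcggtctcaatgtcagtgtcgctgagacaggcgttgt
The Ndufs1 promoter holds the GABPA letters on the opposite strand and the Ndufs4 promoter the YY1 letters on the same strand. The windows of Atp5mk and Ndufb2 hold none of these letters. Promoters were found for 73 member genes. The NRF1 letters stood in 7 of them (9.59%, against 1.66% of all 27457 promoters), the GABPA letters in 7 (9.59% against 4.01%) and the YY1 letters in 8 (11% against 1.93%). Any of the 3 motifs stood in 21 member promoters (28.8% against 7.12%). These matches are descriptions of the sequence, not sites of binding.

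Values are log2 intensities, and a probe set was called at a limma p under 0.05 after Benjamini-Hochberg adjustment over all 29214 probe sets. Errors beside differences are standard errors. Array medians ranged from 7.36 to 7.57, and 89 of the 95 members lay above the median probe set. In 8 arrays (3 Long Evans and 5 Sprague Dawley) the levels of X-linked transcripts went against the labelled sex, and counts without them are given. The 3 Long Evans arrays are all controls, which enter the lead and strain comparisons of that strain. Within each group, the animals were also ranked by their title numbers and called lower-numbered or upper-numbered, with 2 of each in groups of 4. Each set therefore holds every sex and treatment. The labels do not say what the numbers record. In Fischer, array medians ran from 7.44 to 7.57 in the lower-numbered animals and from 7.36 to 7.43 in the upper-numbered, without overlap.

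The largest differences among the members separated lower- from upper-numbered Fischer animals. Of the 95 members, 69 differed (72.6%), 37 higher and 32 lower in the upper-numbered, against a background of 60.9% of all probe sets (18.6% higher, 42.3% lower) and 69.8% of those above the 40th percentile of level. The share of members called is thus close to that of other bright probe sets. The median difference was 0.018 over the members and -0.067 over all probe sets. None was called in Long Evans (0.0993% of all probe sets), where 10 members had an unadjusted p under 0.05 in limma (9.56% of all probe sets did). In Sprague Dawley 45 differed (47.4%), 39 higher and 6 lower, against 17.3% of all probe sets and 24.6% of the bright ones. Without the 8 arrays against the labelled sex the counts were 69, 0 and 44. None of the 8 is a Fischer array, so the Fischer count could not change. In bulk tissue, fewer cells of a type and less RNA per cell cannot be told apart.

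Atp5mk encodes a small membrane subunit of ATP synthase. Its probe set 10747614 ran from 10.87 over a median of 11.08 to 11.35 in the 20 lower-numbered Fischer animals, and from 11.84 over 12.001 to 12.14 in the 20 upper-numbered. The sets did not overlap, and the upper-numbered animals of every one of the 10 Fischer groups lay above their lower-numbered fellows, by 0.84 to 1.10. Levels ran from 10.58 to 11.21 over all Long Evans animals and from 10.75 to 11.21 over all Sprague Dawley animals. All upper-numbered Fischer animals thus stood above every animal of the other strains. The Fischer difference was 0.92 ± 0.033 (adjusted p = 3.5e-21), and that of the other Atp5mk probe set, 10730633, was 0.86 ± 0.030 (adjusted p = 2.1e-21). The difference exceeded that of Long Evans by 0.81 ± 0.053 and that of Sprague Dawley by 0.91 ± 0.054.

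**Figure D1:**
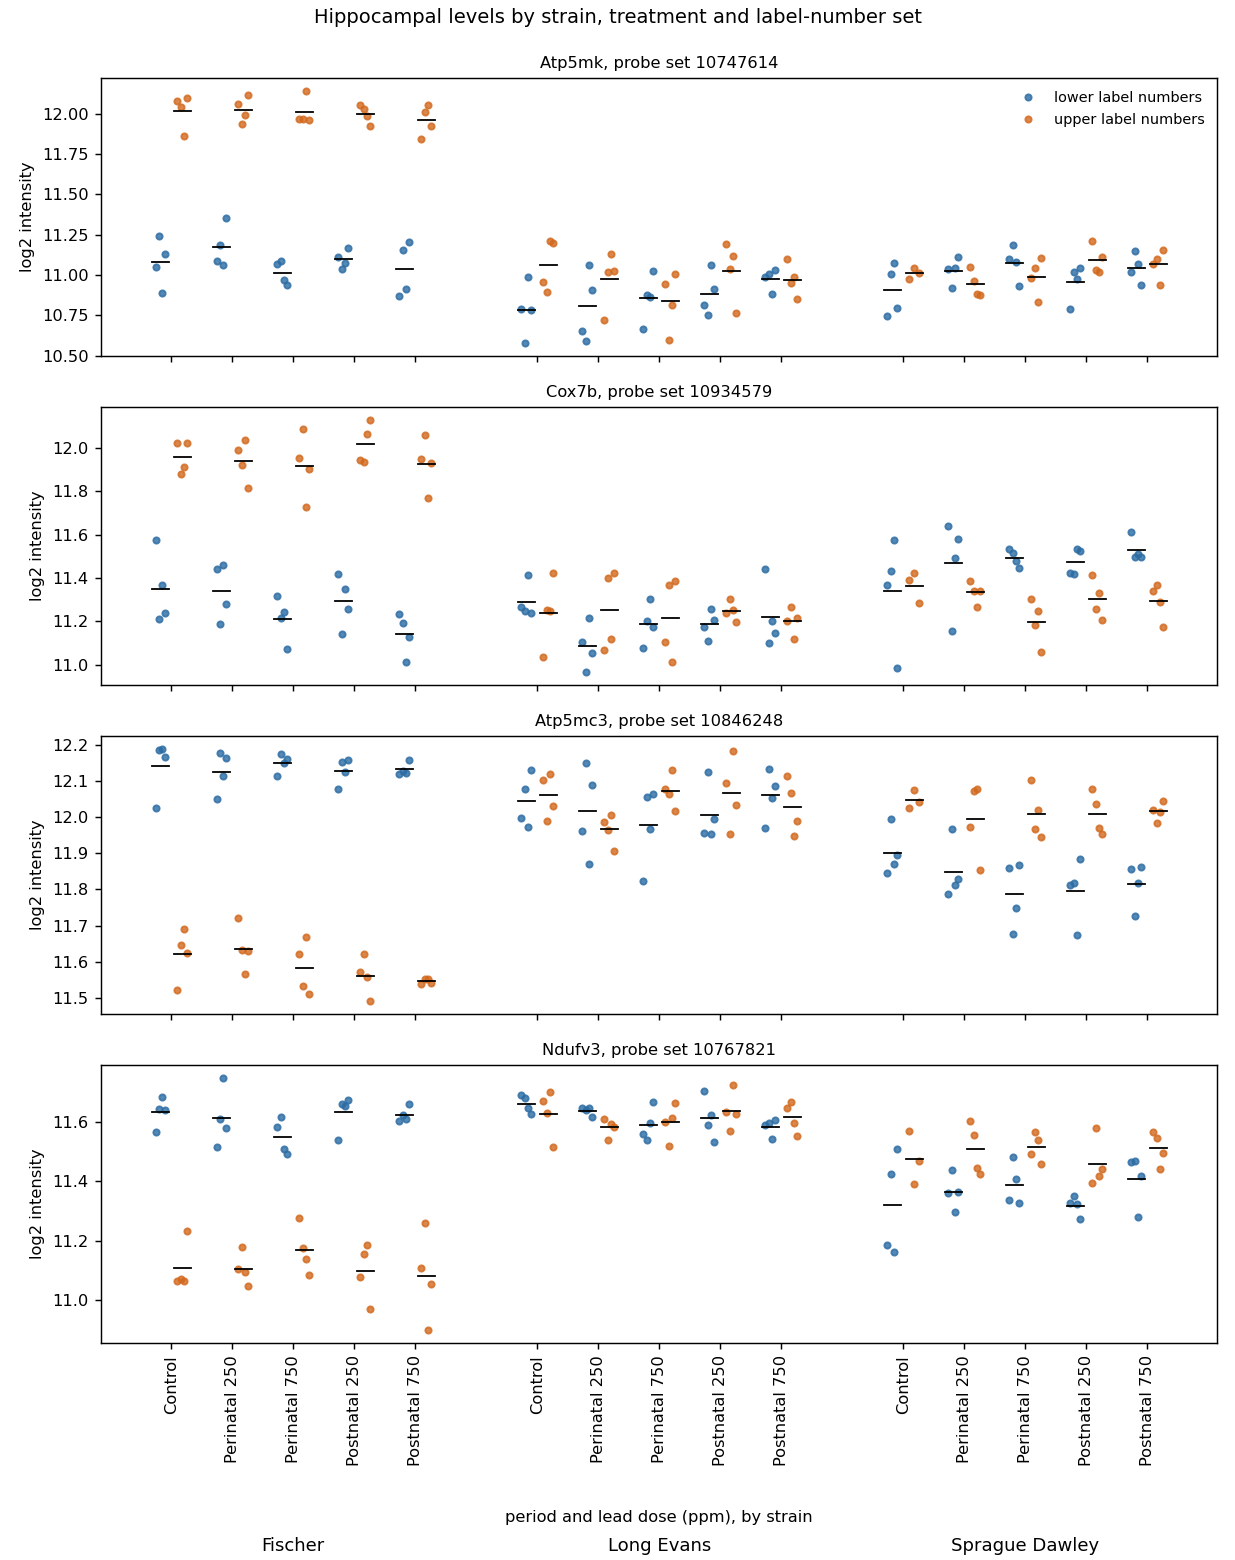
Log2 intensity (vertical axes) of Atp5mk, Cox7b, Atp5mc3 and Ndufv3 in each animal, by strain, period and lead dose (horizontal axis). Blue points are lower-numbered and orange points upper-numbered animals of both sexes, and bars are their means. In Fischer the colours separate in all treatments in these 4 genes, upward in Atp5mk and Cox7b and downward in Atp5mc3 and Ndufv3.

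Complex V members moved in both directions in Fischer. All 5 probe sets of the catalytic F1 head rose: Atp5f1e (the epsilon subunit) by 0.62 ± 0.024, Atp5f1a (alpha) by 0.44 ± 0.020, Atp5f1c (gamma) by 0.16 ± 0.021, Atp5f1d (delta) by 0.14 ± 0.022 and Atp5f1b (beta) by 0.07 ± 0.021. Their adjusted p-values ran from 2.1e-20 (Atp5f1e) to 0.0047 (Atp5f1b). Among 14 probe sets of the stalk and membrane parts, 5 rose and 4 fell. Those that fell included Atp5mc3, a subunit of the proton-carrying c ring, by 0.55 ± 0.020 (adjusted p = 4.3e-21), and Atp5mg, another membrane subunit, by 0.43 ± 0.060. Atp5if1, which inhibits the enzyme when it runs backwards, fell by 0.36 ± 0.029 (adjusted p = 1.9e-12). The c ring isoform Atp5mc1 differed by 0.02 ± 0.026 and was not called.

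For Atp5mc3 (probe set 10846248), lower-numbered Fischer animals ran from 12.03 over 12.15 to 12.19 and upper-numbered from 11.49 over 11.57 to 11.72. The sets did not overlap. In Sprague Dawley the order was the reverse: lower-numbered animals ran from 11.67 over 11.84 to 11.9959 and upper-numbered from 11.85 over 12.02 to 12.10, with some overlap. In all 10 Sprague Dawley groups the upper-numbered lay above the lower-numbered, and the difference was 0.19 ± 0.025 (adjusted p = 1.1e-05). The Fischer and Sprague Dawley differences were 0.73 ± 0.034 apart (Fischer minus Sprague Dawley -0.73, adjusted p = 2e-34). Another probe set of the same gene, 10940472, gave 0.10 ± 0.051 in Fischer and was not called, so the probe sets of Atp5mc3 disagree.

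Among 6 core subunits of complex I, 4 rose in upper-numbered Fischer animals and 1 fell. Ndufv2 and Ndufv1, which with their cofactors take electrons from NADH, rose by 0.42 ± 0.019 (adjusted p = 5.4e-19) and 0.32 ± 0.022 (adjusted p = 6.1e-14). Ndufs1, the largest iron-sulfur subunit, rose by 0.24 ± 0.027, and Ndufs8 by 0.15 ± 0.029. Ndufs7 fell by 0.09 ± 0.024, near the median difference of all probe sets, -0.067. Ndufv2 ran from 11.72 over 11.89 to 11.98 in lower-numbered and from 12.23 over 12.31 to 12.40 in upper-numbered Fischer animals. These did not overlap.

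The 29 accessory probe sets of complex I parted into 8 that rose and 11 that fell. Ndufb4, in the membrane arm, rose by 0.43 ± 0.033 and 0.33 ± 0.029 in its probe sets, and Ndufa5, in the matrix arm, by 0.40 ± 0.027. Ndufv3, which sits beside Ndufv1 and Ndufv2, fell by 0.50 ± 0.027 (adjusted p = 7.6e-17) in probe set 10767821, while its other probe set 10829158 differed by -0.02 ± 0.025 and was not called. In the first, lower-numbered Fischer animals ran from 11.49 over 11.61 to 11.75 and upper-numbered from 10.90 over 11.10 to 11.28, without overlap. Ndufa1 (membrane arm) fell by 0.40 ± 0.036, Ndufs5 by 0.39 ± 0.035 and 0.31 ± 0.040, Ndufa2 by 0.35 ± 0.051 and Ndufs4, whose loss causes complex I deficiency, by 0.32 ± 0.021. Ndufs4 ran from 12.57 over 12.66 to 12.78 in lower-numbered and from 12.21 over 12.35 to 12.41 in upper-numbered animals, again without overlap. The assembly factor Ndufaf1 rose by 0.42 ± 0.043, and Ndufaf3 (0.02) and Ndufaf4 (0.05) were not called.

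In complex II, Sdha, the flavoprotein that oxidises succinate, rose by 0.40 ± 0.021 (adjusted p = 2.8e-17) and Sdhb, the iron-sulfur subunit, fell by 0.06 ± 0.022. The fall of Sdhb is near the median difference of all probe sets, -0.067. The membrane anchors Sdhc (-0.03) and Sdhd (-0.04) were not called. Sdha ran from 10.74 over 10.86 to 10.97 in lower-numbered and from 11.14 over 11.26 to 11.36 in upper-numbered Fischer animals. In complex III 6 of 9 probe sets rose and 2 fell: the 3 probe sets of Uqcrb rose by 0.22 to 0.25, the core protein Uqcrc2 by 0.20 ± 0.026 and the Rieske iron-sulfur protein Uqcrfs1 by 0.16 ± 0.049, and the small subunit Uqcr11 fell by 0.14 ± 0.038.

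Complex IV had 5 of 18 probe sets higher and 10 lower in upper-numbered Fischer animals. Cox7b, an accessory subunit, rose by 0.69 ± 0.035 (adjusted p = 2.4e-17), from 11.01 over 11.24 to 11.57 in the lower-numbered to 11.73 over 11.95 to 12.13 in the upper-numbered. The sets did not overlap. Ndufa4, first assigned to complex I but a subunit of complex IV, rose by 0.14 ± 0.025. Among isoforms, Cox4i1 (the general form) fell by 0.08 ± 0.025 and Cox4i2 (the form tied to low oxygen) by 0.27 ± 0.039. Cox6a1 (the general form) fell by 0.27 ± 0.034 and Cox6a2 (the muscle form) by 0.20 ± 0.033. The fall of Cox4i1 is near the median difference of all probe sets, -0.067. Cox4i2 and Cox6a2 are dim, with means of 6.44 and 7.37 in postnatally exposed Fischer animals. Cox8a fell by 0.15 ± 0.018.

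**Figure D2:**
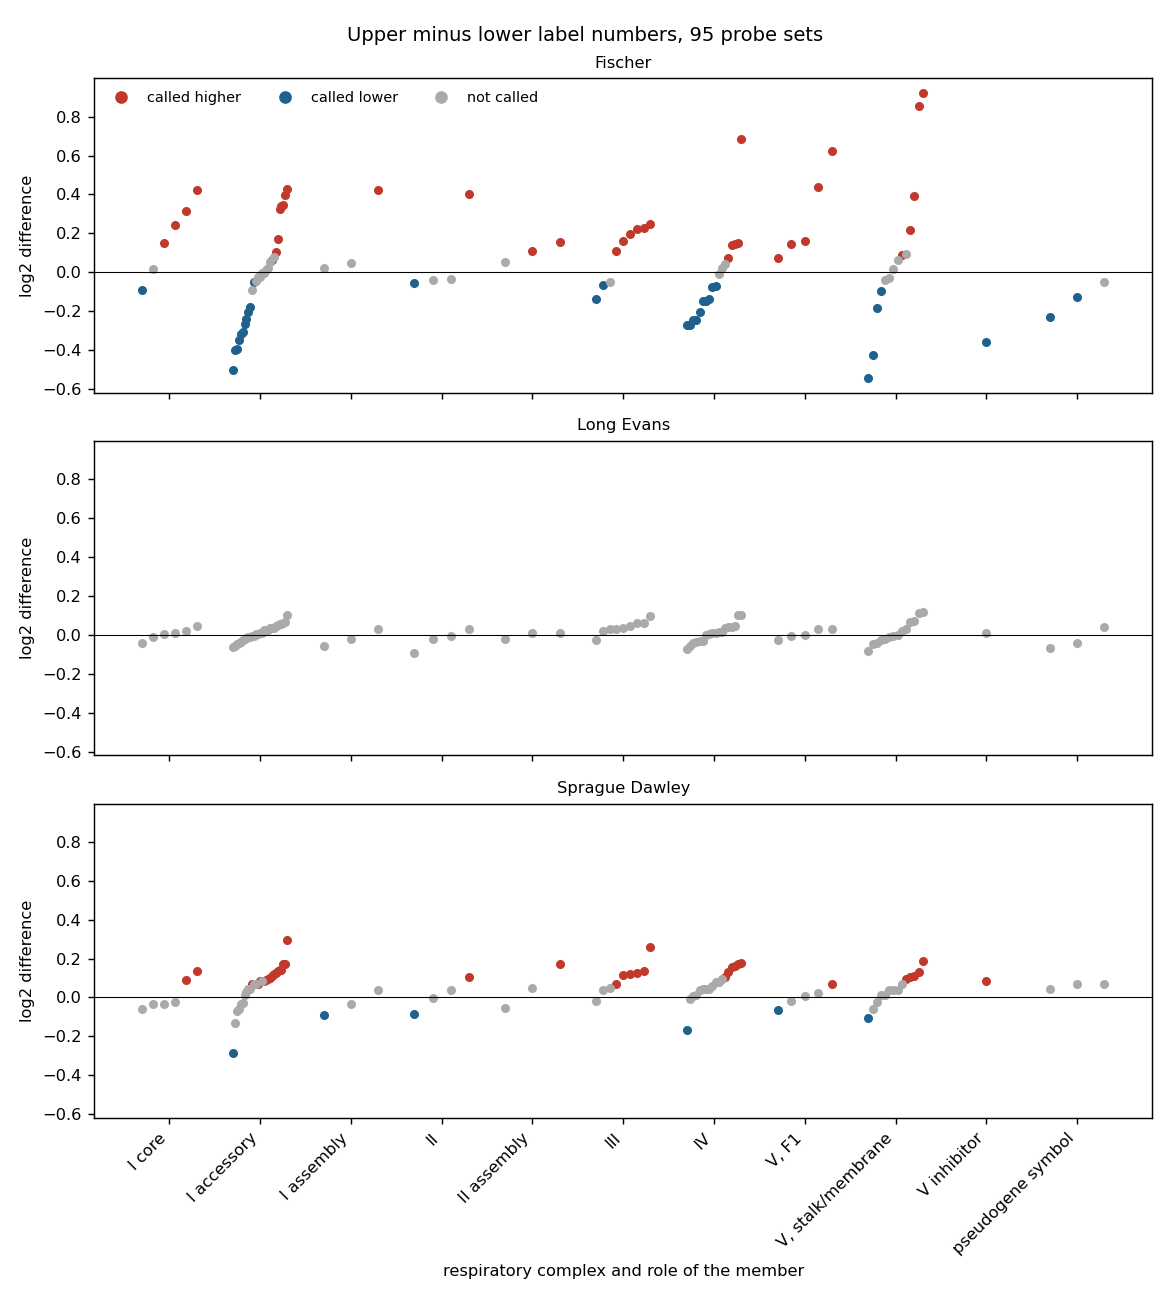
Log2 difference of upper-numbered minus lower-numbered animals (vertical axes) for the 95 members in each strain, by complex and role (horizontal axis). Red points were called higher, blue points called lower and grey points not called. In Fischer, points spread from -0.55 to 0.92 within several complexes, in Long Evans all are grey, and in Sprague Dawley most called points lie above 0.

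In 13 members every upper-numbered Fischer animal lay above every lower-numbered one, and in 7 below. Over all probe sets 4.95% did so in either direction. No member separated in this way in Long Evans or Sprague Dawley. Of the 69 members called in Fischer, 42 had the lower-numbered mean nearer to the mean of the other strains (60.9%, against 66% of all probe sets called). Upper-numbered Fischer animals lay wholly outside the range of the 79 animals of the other strains in 6 members (background 0.77%): both Atp5mk probe sets, Cox7b, Ndufv2, Uqcrc2 and Ndufs4. Lower-numbered Fischer animals did so in 0 members (background 0.127%).

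In Sprague Dawley most called members were higher in upper-numbered animals (background 9.07% higher and 8.23% lower), among them 16 of 29 accessory probe sets of complex I and 6 of 9 probe sets of complex III. Ndufa11, a membrane-arm subunit of complex I, ran from 10.12 over 10.29 to 10.53 in lower-numbered and from 10.34 over 10.61 to 10.80 in upper-numbered animals. These ranges overlap, and the difference was 0.30 ± 0.035 (adjusted p = 3.4e-06). In Fischer it was -0.01 ± 0.030. Uqcrq, a small complex III subunit, rose by 0.26 ± 0.035 and Cox7a2, in complex IV, by 0.18 ± 0.030. Ndufa5 fell by 0.29 ± 0.055 (adjusted p = 0.00045) and Cox7b by 0.17 ± 0.043. Atp5me fell by 0.11 ± 0.032 and the assembly factor Ndufaf4 by 0.09 ± 0.032, and neither was called without the 8 arrays against the labelled sex (adjusted p = 0.051 and 0.092 in limma).

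Calls in Fischer and in Sprague Dawley went the same way in some members and opposite ways in others. Of the 37 members higher in upper-numbered Fischer animals, 14 were also higher and 5 lower in Sprague Dawley. Of all 5424 probe sets higher in Fischer, 311 were higher (1.06% of all probe sets) and 1444 lower (4.94%) in Sprague Dawley. Of the 32 members lower in Fischer, 15 were higher and 0 lower in Sprague Dawley. Of all 12369 probe sets lower in Fischer, 1702 were higher (5.83% of all probe sets) and 360 lower (1.23%). The 20 members called in opposite directions include Atp5f1a, Sdha, Ndufa5 and Cox7b (higher in Fischer) and Atp5mc3, Ndufv3, Ndufa1, Cox6c and Atp5if1 (lower in Fischer). The difference itself differed between the strains in 62 members for Fischer against Long Evans (35 with the higher value in Fischer, 27 lower; background 43.2%, as 14.6% and 28.7%), in 66 for Fischer against Sprague Dawley (28 and 38; 55.1%, as 17.8% and 37.3%) and in 24 for Sprague Dawley against Long Evans (20 and 4; 9.74%, as 4.79% and 4.95%).

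Other genes moved along the same division in Fischer. Of 14 probe sets of the citric acid cycle and pyruvate dehydrogenase 10 rose and 1 fell, led by Pdha1 (0.49 ± 0.025 and 0.47 ± 0.024) and Idh3a (0.46 ± 0.023). Of 23 probe sets of other assembly factors 13 rose and 5 fell, and of 15 for carriers and redox partners 8 rose and 4 fell, with Vdac1 up by 0.39 ± 0.022 and Coq7 down by 0.53 ± 0.039. Of 10 regulators of mitochondrial genes 2 rose and 6 fell, among them Ppargc1b (fell by 0.31 ± 0.030) and Ppargc1a (fell by 0.18 ± 0.019). The background of called probe sets was 18.6% higher and 42.3% lower.

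Markers of cell types were called too, where 18.6% of all probe sets were called higher and 42.3% lower. Of the bright probe sets 69.8% were called in either direction. Of 8 astrocyte probe sets 7 rose, led by Gfap (0.52 ± 0.033), and the list's mean level ran from 11.20 to 11.29 in lower-numbered and from 11.38 to 11.49 in upper-numbered Fischer animals. Of 9 oligodendrocyte probe sets 6 rose and 1 fell, with list means of 11.13 to 11.47 and 11.21 to 11.62. Of 7 interneuron probe sets 2 rose and 5 fell, among them Sst (fell by 0.48 ± 0.032), with list means of 9.60 to 9.82 and 9.36 to 9.65. Microglial (2 rose, 5 fell of 8) and endothelial (2 and 4 of 7) markers divided as well, as did principal neuron markers (5 and 2 of 9). Red blood cell markers gave 1 and 1 of 4, and none of 11 choroid plexus probe sets was called, with list means of 6.73 to 10.27 and 6.83 to 10.65. Their part in the differences of the members was not tested.

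Control animals were compared between strains. Title numbers of the controls lie in a separate range in each strain, so strain and what the numbers record cannot be told apart. Between Fischer and Long Evans 35 members differed (36.8%), 25 higher and 10 lower in Fischer, against 25.1% of all probe sets (13.4% higher, 11.7% lower) and 33.1% of bright ones. Between Fischer and Sprague Dawley 23 differed (24.2%), 11 higher and 12 lower in Fischer, against 10.5% (6.13% and 4.41%) and 14.5%. Between Sprague Dawley and Long Evans 33 differed (34.7%), 25 higher and 8 lower in Sprague Dawley, against 24.5% (12.4% and 12%) and 30.3%. The comparisons share their control animals. Without the 8 arrays against the labelled sex the counts were 27, 17 and 24. Shares of all probe sets are not given for that setting, so whether the lower counts concern the members alone cannot be said. With the label-number difference of each strain in the fit the member counts were 47 (32.1% of all probe sets), 37 (17%) and 42 (30.6%), all by limma.

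**Figure D3:**
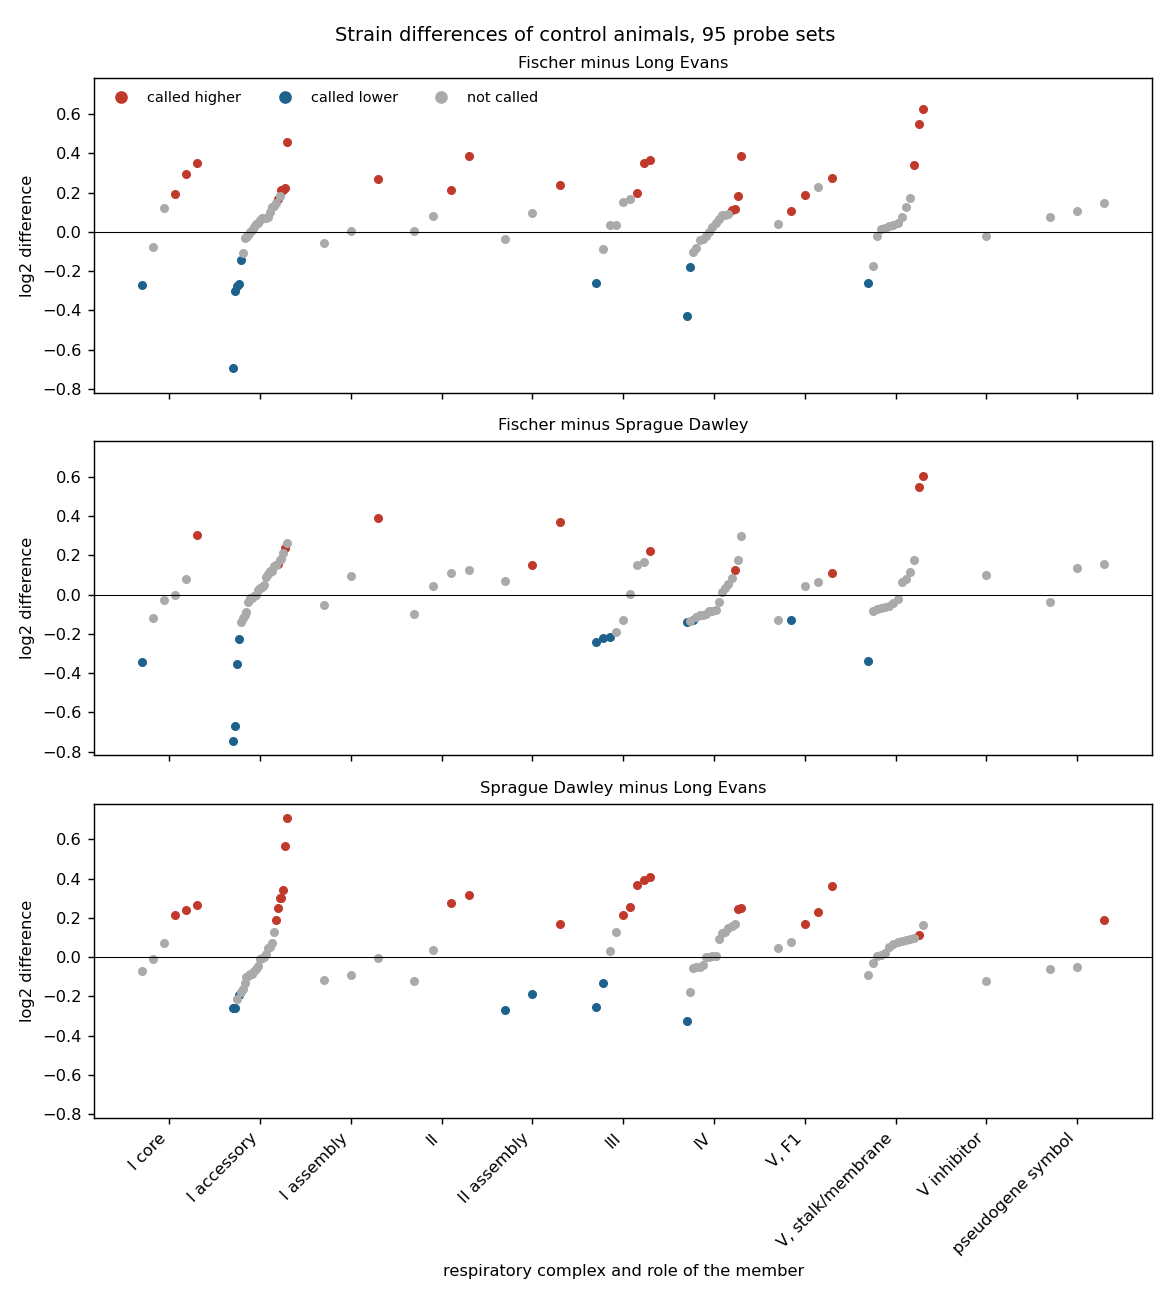
Log2 difference between control animals of a pair of strains (vertical axes) for the 95 members, by complex and role (horizontal axis). Red points were called higher, blue points called lower and grey points not called. Most called points lie above 0 for Fischer and for Sprague Dawley against Long Evans.

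Ndufb2, an accessory subunit in the membrane arm of complex I, had the smallest adjusted p among the strain differences of the members. Control animals ran from 8.16 over 8.25 to 8.45 in Fischer, from 8.08 over 8.22 to 8.57 in Long Evans and from 8.79 over 8.99 to 9.06 in Sprague Dawley. Sprague Dawley controls did not overlap the others. They exceeded Long Evans by 0.71 ± 0.062 (adjusted p = 1.7e-16) and Fischer by the same order (Fischer minus Sprague Dawley -0.67 ± 0.062, adjusted p = 4.1e-15). Against Long Evans the difference was 0.74 ± 0.082 with lower-numbered and 0.68 ± 0.096 with upper-numbered animals alone.

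Ndufa10, another accessory subunit of complex I, was low in Fischer: controls ran from 7.28 over 7.46 to 7.84, against 7.76 over 8.23 to 8.38 in Long Evans and 7.85 over 8.24 to 8.60 in Sprague Dawley. Fischer overlapped Long Evans slightly and Sprague Dawley not at all. The differences were -0.69 ± 0.12 from Long Evans (adjusted p = 1.9e-06) and -0.75 ± 0.12 from Sprague Dawley (adjusted p = 2.1e-06). Ndufs8, a core iron-sulfur subunit, was low in Fischer as well, at 9.56 over 9.71 to 9.81 against 9.91 over 9.95 to 10.04 in Long Evans and 9.86 over 10.07 to 10.12 in Sprague Dawley, without overlap. Its differences were -0.27 ± 0.052 and -0.35 ± 0.055 (adjusted p = 3.7e-05 and 1.1e-06 in limma). Both genes kept their call and sign in lower- and in upper-numbered animals alone, in both comparisons.

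Ndufb7, in the membrane arm of complex I, ran from 10.53 over 10.70 to 10.75 in Sprague Dawley controls, above all Long Evans (9.73 over 10.13 to 10.24) and all Fischer controls (10.07 over 10.35 to 10.50). It was higher than in Long Evans by 0.57 ± 0.078 (adjusted p = 1.6e-08), and Fischer minus Sprague Dawley was -0.35 ± 0.078. Sdhc, a membrane anchor of complex II, was low in Long Evans: controls ran from 11.60 over 11.72 to 11.89, against 11.82 over 11.96 to 12.0043 in Fischer and 11.91 over 12.03 to 12.13 in Sprague Dawley. Sprague Dawley did not overlap Long Evans. The difference was 0.32 ± 0.045 for Sprague Dawley (adjusted p = 3.5e-08) and 0.21 ± 0.043 for Fischer (adjusted p = 6.8e-05), each against Long Evans.

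Cox7a2l, which helps join complexes III and IV in supercomplexes, was high in Long Evans. Controls there ran from 11.73 over 11.83 to 11.89, against 11.15 over 11.45 to 11.71 in Fischer and 11.22 over 11.53 to 11.65 in Sprague Dawley, and the Long Evans animals overlapped neither. The differences from Long Evans were -0.43 ± 0.067 in Fischer (adjusted p = 3.6e-07) and -0.32 ± 0.069 in Sprague Dawley (adjusted p = 0.00021). In complex III, the 3 probe sets of Uqcrb were higher in Sprague Dawley than in Long Evans by 0.37 to 0.41, and the core protein Uqcrc1 by 0.26 ± 0.043. Uqcrc2 was higher in Fischer than in Long Evans by 0.37 ± 0.056. Ndufs1 was higher than in Long Evans by 0.35 ± 0.055 in Fischer and 0.27 ± 0.058 in Sprague Dawley, and these calls held in either label-number set.

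Sdhaf3, an assembly factor of complex II, was lowest in Sprague Dawley (Fischer minus Sprague Dawley 0.37 ± 0.069; Sprague Dawley minus Long Evans -0.27 ± 0.069). The second was not called with upper-numbered animals alone (-0.20, adjusted p = 0.12 in limma). Ndufb6, a membrane-arm subunit of complex I, was lower in Sprague Dawley than in Long Evans by -0.26 ± 0.050. In Fischer against Long Evans, Ndufa2 was higher by 0.46 ± 0.11 and Ndufs5 lower by -0.30 ± 0.083. With upper-numbered animals alone Ndufa2 differed by 0.34 (adjusted p = 0.055 in limma), and with lower-numbered alone Ndufs5 by -0.19 (adjusted p = 0.13).

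**Figure D4:**
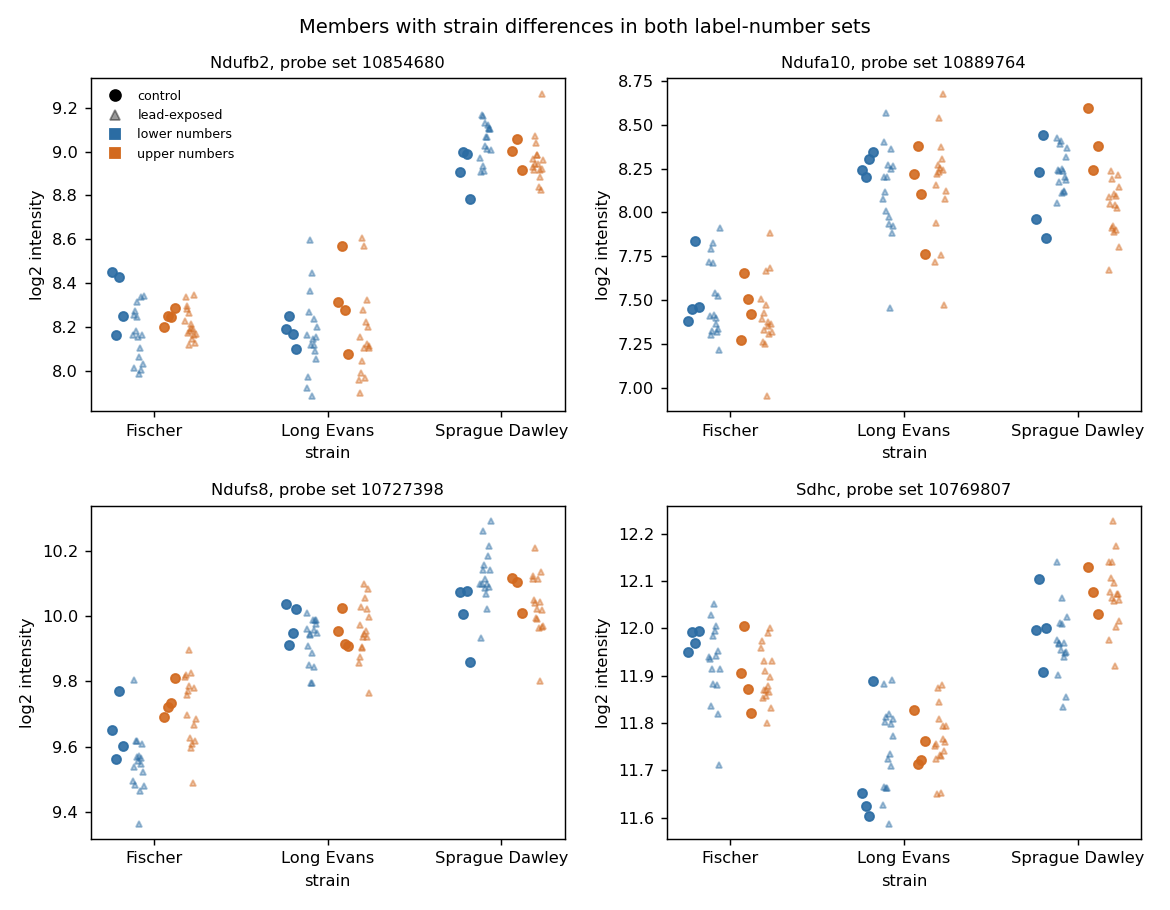
Log2 intensity (vertical axes) of Ndufb2, Ndufa10, Ndufs8 and Sdhc by strain (horizontal axes). Circles are control and triangles lead-exposed animals, blue lower-numbered and orange upper-numbered. Ndufb2 is high in Sprague Dawley, Ndufa10 and Ndufs8 are low in Fischer and Sdhc is low in Long Evans, in both colours.

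Other strain differences depended on the label numbers. Atp5mk controls ran from 10.89 to 12.09 in Fischer (probe set 10747614), and the difference from Long Evans was 0.62 ± 0.16 in all, 0.29 with lower-numbered and 0.96 with upper-numbered animals alone. Against Sprague Dawley it was 0.60 ± 0.17 in all (adjusted p = 0.011) and 0.17 with the lower-numbered alone (adjusted p = 0.19 in limma). That call was also lost without Fischer female control replicate 4 (0.50, adjusted p = 0.05 in limma as rounded). Cox7b was higher in Fischer than in Long Evans by 0.39 ± 0.13 in all and by 0.06 with the lower-numbered alone, and Ndufv3 was lower by -0.27 ± 0.092 in all and by -0.03. Ndufaf1, higher in Fischer than in Sprague Dawley by 0.39 ± 0.11, differed by 0.15 with the lower-numbered alone. Both Cox7b and Ndufv3 also lost this call without any 1 of 4 Fischer controls (male replicates 3 and 4, female replicates 3 and 4), at 0.32 to 0.35 and -0.25 to -0.22. Ndufv3, lower in Sprague Dawley than in Long Evans by -0.26 ± 0.096, lost the call in 8 such omissions.

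Some members differed between strains in opposite directions in the label-number sets. Against Sprague Dawley, 5 members were called in both sets with opposite signs: Atp5f1a (-0.18 lower-numbered, 0.26 upper-numbered), Ndufv1 (-0.21, 0.17), Atp5mc3 (0.24, -0.42), Ndufs4 (0.18, -0.21) and Ndufv3 (0.31, -0.39). In the pooled controls none of these was called, with differences from -0.08 to 0.04. Over all probe sets 1.67% were called with opposite signs in that comparison. Called in both sets with 1 sign were 12 members for Fischer against Long Evans (6.18% of all probe sets), 8 for Fischer against Sprague Dawley (2.15%) and 19 for Sprague Dawley against Long Evans (6.45%). Opposite signs were found in 1 member for Fischer against Long Evans, Ndufs4 (0.329%), and in 0 for Sprague Dawley against Long Evans (0.0137%). Background shares of calls in each set by itself were 12.6% (lower-numbered) and 28.4% (upper), 14.4% and 14.7%, and 22.3% and 9.84%, in that order.

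Some probe sets of the marker lists were also called between control strains. Of 8 astrocyte probe sets 5 were higher in Fischer and 4 in Sprague Dawley than in Long Evans. Of 9 principal neuron probe sets 2 were lower in each of these comparisons, with Neurod2 lower in Sprague Dawley by -0.51 ± 0.078. Of 14 citric acid cycle probe sets 7 were higher in Fischer and 7 in Sprague Dawley than in Long Evans, among them Suclg1 (0.46 ± 0.060) and Cs (0.31 ± 0.062) in Sprague Dawley. Over all probe sets, 13.4% were called higher and 11.7% lower in Fischer than in Long Evans. For Sprague Dawley against Long Evans the shares were 12.4% and 12%. Calls in the other marker lists between control strains are not given here, nor those of Fischer against Sprague Dawley. Over control and exposed animals, microglial list means in Long Evans ran from 8.944 to 9.198 (lower-numbered) and 8.976 to 9.214 (upper-numbered). They ran from 9.203 to 9.406 and 9.155 to 9.352 in Fischer, and from 9.15 to 9.371 and 9.196 to 9.349 in Sprague Dawley. The part of the markers in the members' strain differences was not tested.

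The study's treatment was dietary lead, and each exposed group was compared with the controls of its strain and sex. Of the 95 members, 0 were called in any of the 24 comparisons by limma. Background shares over the 8 comparisons of a strain were 0.00214% in Fischer, 0.0424% in Long Evans and 0.00813% in Sprague Dawley. An unadjusted p under 0.05 was found in 12 of 760 member tests in Fischer (1.58%, against 3% of all probe sets), 35 in Long Evans (4.61% against 5.97%) and 16 in Sprague Dawley (2.11% against 3.17%). The 4 comparisons of a strain and sex share their controls. Title numbers lie in separate ranges in each exposed group and its controls, so lead and what the numbers record cannot be told apart. The count of called members stayed 0 in Long Evans and Sprague Dawley without the 8 arrays against the labelled sex, none of which is Fischer.

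The mean of the 8 effects gave 0 called members in each strain, where 0, 62 and 5 probe sets were called in all (0%, 0.212% and 0.0171%). At an unadjusted p under 0.05 there were 3 members in Fischer, 2 in Long Evans and 3 in Sprague Dawley, where 2.5%, 7.45% and 3.64% of all probe sets had one. Mean effects ran from -0.12 to 0.06 in Fischer, from -0.12 to 0.14 in Long Evans and from -0.20 to 0.12 in Sprague Dawley. The 95% interval lay within 0.25 of no change in 86, 94 and 92 of the 95 members. In Fischer 78 of 95 members had a negative estimate, with a median of -0.026 against -0.004 over all probe sets, and none of them passed the test. Over all 24 comparisons 1 member had the same sign throughout (0.0103% of all probe sets), Ndufb10. For Atp5mk, Fischer controls ran from 10.89 over 11.55 to 12.09 and exposed animals from 10.87 over 11.60 to 12.14, and the mean effect was -0.01 with an interval from -0.43 to 0.41, the widest bounds of any member. With the label-number difference in the fit, the Atp5mk interval ran from -0.09 to 0.08 around -0.01. In that fit 0 members were called in Fischer, for the mean or any single comparison, and 6 had an unadjusted p under 0.05 for the mean in limma. The 95% interval of the mean effect then lay within 0.25 of no change in 94 of 95 Fischer members, with a median half-width of 0.07 in place of 0.12. The Fischer single comparisons had a median half-width of 0.13 there.

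**Figure D5:**
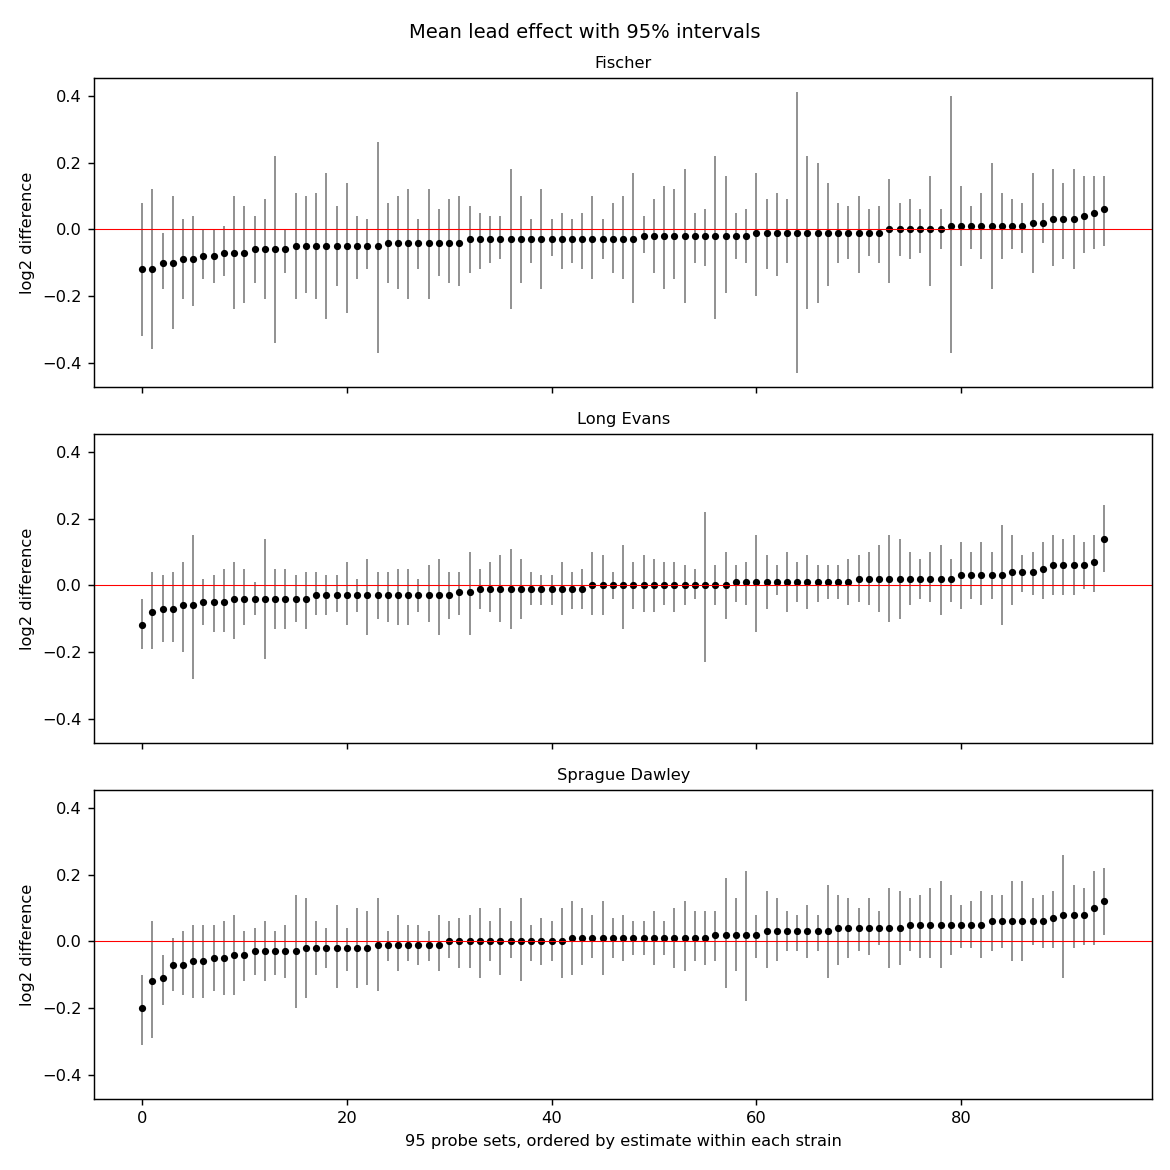
Mean lead effect (log2 difference of exposed groups minus controls, vertical axes) of the 95 members in each strain, ordered by estimate (horizontal axis). Points are estimates and lines 95% intervals. No member was called, and most intervals cross 0.

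Single members came closest as follows. In Sprague Dawley, Cox4i2, the low-oxygen isoform of a complex IV subunit, ran from 6.23 over 6.56 to 6.66 in 7 controls and from 6.08 over 6.29 to 6.55 in 32 exposed animals. The groups overlap, and the mean effect was -0.20 ± 0.053 (unadjusted p = 0.00053, adjusted p = 0.67). The probe set is dim, at 6.41 on average. Its effects were -0.01 in Fischer and 0.01 in Long Evans. In Long Evans, Uqcrfs1 was 0.14 ± 0.048 above controls (adjusted p = 0.37) and Ndufb10 -0.12 ± 0.038 (adjusted p = 0.28), neither called.

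Of the single comparisons, the smallest adjusted p was 0.32, for Ndufb2 in Long Evans males given 250 ppm perinatally (-0.35 ± 0.10). In Fischer the smallest unadjusted p-values belonged to Sdhb in males at 750 ppm perinatal (-0.18 ± 0.056, adjusted p = 1) and Atp5mc2 in females at 750 ppm postnatal (-0.24 ± 0.085, adjusted p = 1). In Sprague Dawley they belonged to Cox4i2 in females at 750 ppm perinatal (-0.30 ± 0.089) and Ndufb6 in males at 750 ppm postnatal (0.27 ± 0.088), both at an adjusted p of 1. Single comparisons were less precise than the means: the median half-width of their 95% intervals was 0.21 in Fischer and 0.14 in Long Evans, and Sprague Dawley had 0.15 in males and 0.14 in females.

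Dose, period and sex gave 0 called members in each strain. Background shares for 750 minus 250 ppm were 0.0719%, 0.0548% and 0.00342% in Fischer, Long Evans and Sprague Dawley, for postnatal minus perinatal 0.00342%, 0.065% and 0.0411%, and for female minus male 0.0822%, 0.0856% and 0.0171%. In that order of strains, 6, 3 and 1 members had an unadjusted p under 0.05 for dose, 0, 7 and 0 for period and 2, 6 and 5 for sex, all by limma. The shares of all probe sets were 5.51%, 6.94% and 3.3% for dose, 4.29%, 12.1% and 4.21% for period, and 6.59%, 16.5% and 9.29% for sex. The smallest adjusted p for period was that of Ndufb2 in Long Evans, 0.19 ± 0.050 higher after postnatal exposure (adjusted p = 0.14). For sex it was Ndufb4 in Long Evans, 0.14 ± 0.045 higher in females (adjusted p = 0.15), where 3 arrays go against the labelled sex. For dose it was Ndufa7 in Long Evans (0.08 ± 0.037, adjusted p = 0.64).

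Marker lists moved with lead in places. In Long Evans 4 of 9 oligodendrocyte probe sets were higher in exposed animals, among them Cldn11 (0.21 ± 0.037), Mog (0.26 ± 0.057) and Mag (0.21 ± 0.047). Over all probe sets 0.175% were called higher and 0.0377% lower there. Among the Long Evans controls behind these effects, 3 arrays go against the labelled sex. The 11 choroid plexus probe sets had median effects of -0.16, -0.37 and 0.25 in Fischer, Long Evans and Sprague Dawley, with 0 called. Of the other genes of the pathway (23 probe sets of assembly factors, 14 of the citric acid cycle, 10 of regulators, 15 of carriers), 0 were called for the mean lead effect in each strain.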

How the data were processed

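The deposited values are log2 intensities per probe set, made by the authors with RMA and Partek, per the submitters' processing notes; versions and any batch correction are not given in the sources used here. They were used as deposited. Group means were fitted per strain with limma 3.58.1 in R 4.3.3, and strain differences in 1 fit of all arrays. The label-number difference was a term beside the groups. Tests were two-sided. The number of arrays limits the precision. Figures used matplotlib 3.10.9, and tables pandas 2.3.3 in Python 3.11.15. Symbols came from the platform annotation and promoters from RefSeq (GRCr8). The members and lists were chosen with earlier results of these data known. Named members were Atp5mk, those with the largest called differences (up to 8 each way for label numbers in Fischer, 4 otherwise), the 2 smallest p-values where none was called, and a fixed set of subunits, of which Cox7a1 and Ndufa4l2 had no probe set with their symbol alone. Other genes are named from the lists or were chosen after their values were seen. On simulated data of 29214 probe sets, shifts of 0.25 and 0.5 were called in 75% and 100% for label numbers in Fischer and 65% and 95% for the mean lead effect in Long Evans, but in 27% and 79% for a single lead comparison (Long Evans males, postnatal 750 ppm). Alternatives were quantile normalization, a filter at the 40th percentile, array weights, 1 fit, a label-number block, each label-number set alone, and omission of single arrays or of the 8 that go against the labelled sex.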

Additional observations from a re-analysis of the deposited data

Results flagged for a closer look

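The label-number difference itself differed between strains, by limma interaction contrasts, in 62 members for Fischer against Long Evans, 66 for Fischer against Sprague Dawley and 24 for Sprague Dawley against Long Evans. In that order, 43.2%, 55.1% and 9.74% of all probe sets differed, and 55.7%, 65.1% and 14% of the bright ones. Among the members, Atp5mk and Cox7b had differences in Fischer above those of both other strains, and Atp5mc3 and Ndufv3 below.

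The mean log2 level of the 95 members stood apart in 2 of the 29 groups of 4 animals. Fischer female control replicate 4 had 10.59, against 10.52 to 10.53 in the others of its group. Fischer female perinatal 250 ppm replicate 1 had 10.586, against 10.50 to 10.51. Chance flags about 1 in 20 groups.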

How the results depend on the processing

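Of 5168 values of called differences of named members in the alternatives run, 5075 kept their call and 93 lost it. Most of these values come from fits that leave out a single array, so the share kept says little about the other alternatives. Members not called are outside this count, and 5 of them, between Fischer and Sprague Dawley controls, were called with opposite signs in the label-number sets. Not every called difference kept its sign. Ndufv1, higher in Fischer than in Long Evans controls by 0.19, differed by -0.01 with lower-numbered animals alone. The Long Evans label-number count of 0 became 1 with quantile normalization, with the 40th percentile filter and with array weights, 3 in 1 fit of all arrays, and 0 to 1 when single arrays were left out; the period count in Long Evans became 1 in 1 fit. For control strains, Fischer against Long Evans went from 35 to 21 with lower-numbered and 44 with upper-numbered animals alone. Over all probe sets the share went from 25.1% to 12.6% and 28.4%. Fischer against Sprague Dawley went from 23 to 37 with the label-number block and with upper-numbered animals alone (from 10.5% to 17% and 14.7%). Sprague Dawley against Long Evans went from 33 to 19 with upper-numbered alone (from 24.5% to 9.84%). The cause was not tested. Leaving out single arrays gave 67 to 72 called members for label numbers in Fischer, 40 to 47 in Sprague Dawley, 27 to 44, 17 to 25 and 28 to 34 for the control strains in that order, and 0 for lead, dose, period and sex. No paired analysis was possible because the title numbers belong to single animals and replicate numbers only follow the accession order.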

Other observations

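Ndufb10, an accessory subunit in the membrane arm of complex I, was lower than controls in all 24 lead comparisons. It was singled out after its values were seen. Of 29214 probe sets, 3 had 1 sign in all 24 (0.0103%), and Ndufb10 was the only one with negative signs throughout. The comparisons share controls within a strain and sex, so they are not independent. In Fischer, controls ran from 10.69 over 10.79 to 10.85 and exposed animals from 10.52 over 10.71 to 10.92. In Long Evans controls ran from 10.73 over 10.81 to 10.92 and exposed animals from 10.51 over 10.68 to 10.98, and in Sprague Dawley from 10.65 over 10.72 to 10.92 and from 10.47 over 10.65 to 10.85. Exposed and control animals overlapped in every strain.

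The mean effects of Ndufb10 were -0.08 ± 0.035, -0.12 ± 0.038 and -0.11 ± 0.038 in Fischer, Long Evans and Sprague Dawley, with unadjusted p-values of 0.04, 0.0039 and 0.0044 in limma. None passed adjustment (adjusted p = 1, 0.28 and 1). It was the only probe set with an unadjusted p under 0.05 and 1 sign in all 3 strains. In Fischer p was 0.081 (-0.06 ± 0.036) with quantile normalization, so this property was lost there. The 24 negative signs held with quantile normalization, with the label-number block and when the 8 arrays that go against the labelled sex were left out. The block could not change the Fischer and Long Evans signs, because each group there has 2 lower- and 2 upper-numbered animals. None of the 8 arrays is Fischer, so leaving them out could not change the Fischer signs. With lower-numbered animals alone 22 were negative and with upper-numbered alone 20, and the Fischer effect was then -0.11 ± 0.046 and -0.04 ± 0.046. The unadjusted p under 0.05 in all 3 strains was lost in both sets. In limma it was 0.41 in Fischer and 0.12 in Long Evans with the upper-numbered alone, and 0.11 in Sprague Dawley with the lower-numbered alone. These settings were chosen after its values were seen.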
